A study of Homo sapiens with 4 samples.

Results

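The family of miR-148a, miR-148b and miR-152 was examined in cortical interneurons, the inhibitory nerve cells of the cortex, derived in culture from H1, a human embryonic stem cell (hESC) line. Its members were taken by name and were the 6 mature miRNAs hsa-miR-148a-3p, hsa-miR-148a-5p, hsa-miR-148b-3p, hsa-miR-148b-5p, hsa-miR-152-3p and hsa-miR-152-5p, out of 2656 mature miRNAs counted by small RNA-seq. The ethanol-exposed group was 2 libraries from interneurons grown for 7 days in medium with around 50 to 100 mM ethanol. The unexposed group was 2 libraries from interneurons of the same line grown for 7 days without ethanol. No genetic alteration is stated for any of the cells, and all came from 1 hESC line, so the spread between libraries is a spread between cultures of that line and not between people. After the exposure the cells were kept for a further period without ethanol before RNA was extracted, so the levels are those after withdrawal.

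A miRNA precursor folds into a hairpin, and each arm can give a mature strand, named 5p or 3p. One strand, the guide, is loaded into Argonaute and directs repression of mRNAs that pair with its seed, the bases near its 5′ end, while the other strand, the passenger, is mostly degraded. In this family the 3p strand is the guide. The family is known for targeting DNMT1, the methyltransferase that copies DNA methylation onto the new strand after replication and is also present in postmitotic neurons. miR-148a is also known for high levels in liver and for repressing the low-density lipoprotein receptor.

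The 3 guide strands are shown first because their shared start defines the family and their few differences decide whether reads can be told apart. Mature sequences were found in RefSeq (GRCh38.p14) for 5 of the 6 members, with hsa-miR-148a-5p named only. The capitals mark the seed, bases 2 to 8 counted from the 5′ end.
hsa-miR-148a-3p: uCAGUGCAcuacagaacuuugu
hsa-miR-148b-3p: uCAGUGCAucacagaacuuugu
hsa-miR-152-3p: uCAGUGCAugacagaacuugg
The seed CAGUGCA belonged to these 3 miRNAs and to no other of the 2370 mature miRNAs in the RefSeq table. Counted from the 5′ end, miR-148a-3p and miR-148b-3p differed by C9U and U10C and shared 20 of 22 bases. miR-148a-3p and miR-152-3p differed by C9U, U10G and U20G, and miR-148b-3p and miR-152-3p by C10G and U20G. The differences therefore lay outside the seed, at the middle and near the 3′ end. The handling of reads that match several of them is not described for these data.

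The passenger strands are shown because each has a seed of its own, again in capitals.
hsa-miR-148b-5p: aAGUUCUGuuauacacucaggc
hsa-miR-152-5p: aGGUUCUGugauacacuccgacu
Their seeds differed from each other and from that of the guides.

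The precursor genes lie on 3 chromosomes (GRCh38, GENCODE 29). MIR148A, at chromosome 7 from 25949919 to 25949986 on the minus strand, lies between genes, 202254 bases from NFE2L3 and 721433 bases from NPVF, the nearest protein-coding genes on either side. MIR148B, at chromosome 12 from 54337216 to 54337314 on the plus strand, lies within COPZ1, in an intron of all 17 COPZ1 transcripts that span it, and within an intron of the noncoding gene AC078778.2. MIR152, at chromosome 17 from 48037161 to 48037247 on the minus strand, lies within an intron of all 3 COPZ2 transcripts that span it. COPZ1 and COPZ2 are paralogs that encode the zeta subunit of the COPI coat, which carries vesicles from the Golgi back to the endoplasmic reticulum, and both precursors are on the strand of their host. The mRNA libraries of these cells were not analysed here, so neither host genes nor targets have a measured level.

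The mRNA bases that pair with the family's seed, TGCACTG, were looked for on the sense strand of 1 principal GENCODE 29 transcript each of DNMT1, DNMT3A and DNMT3B, the latter pair being the enzymes that set new methylation. The motif TGCACTGA is the same with an A opposite the first base of the guide, and each of its matches is also a match to TGCACTG. Matches are shown with the 15 bases before them, and the capitals mark the match.
DNMT1, 3′ UTR, chr19:10133612-10133634 (minus strand): caggaatccccaacaTGCACTGA
DNMT3A, coding region, chr2:25235716-25235738 (minus strand): gaggacatcttatggTGCACTGA
DNMT3B, coding region, chr20:32797226-32797248 (plus strand): ggctatcagtcttacTGCACTGt
DNMT3B, coding region, chr20:32806296-32806318 (plus strand): gaagatgttttgtggTGCACTGA
The DNMT1 match started at base 48 of a 3′ UTR of 321 bases. The longer motif was present in 3.79% of 18735 protein-coding 3′ UTRs and in 1.09% of the 1655 that were within 0.8 to 1.2 times the length of that of DNMT1, and the shorter one in 12.6% and 3.2%. DNMT3A and DNMT3B had 0 matches to TGCACTG in their 3′ UTRs of 6424 and 1453 bases. These are matches of letters and were not measured as binding or repression in these cells.

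The deposited table held 22223060 and 24858230 counts for the cultures with ethanol, against 13941795 and 12100425 for those without, so depth and exposure cannot be told apart in this design. The miRNAs fixed as markers were listed by broad cell type, with a list for neurons but none for interneurons. All 7 neuronal miRNAs (among them miR-124-3p, miR-9-5p and miR-128-3p) were present. After TMM scaling they summed to between 302923 and 482460 CPM (counts scaled to a library of 1000000). Their levels were unequal. With CPM scaled to library size only, miR-9-5p was between 167314 and 214909 CPM and miR-7-5p between 89925 and 158266 CPM. The neuronal miR-137-3p (62.0 to 85.0 CPM) and miR-138-5p (41.7 to 70.3 CPM) were below the muscle miRNA miR-1-3p (199 to 339 CPM). The other muscle miRNAs, miR-133a-3p (1.22 to 1.80 CPM) and miR-206 (0.644 to 1.12 CPM), were far below miR-1-3p. The sums of the other lists, and the level of miR-122-5p below, are again TMM-scaled. The 7 stem cell miRNAs summed to between 2.42 and 3.89 CPM, with 2 of them at 0 counts in all libraries. The 3 blood cell miRNAs summed to at most 0.657 CPM, with 2 of them at 0, and the 4 mesenchymal ones to between 56.9 and 88.7 CPM. The 3 glial miRNAs summed to between 75.7 and 116 CPM and the 3 muscle miRNAs to between 178 and 404 CPM. The liver marker miR-122-5p was between 16.5 and 44.2 CPM. The glial and mesenchymal sums each came mostly from 1 miRNA, as seen with CPM scaled to library size only. For the glial list it was miR-219a-2-3p (62.3 to 120 CPM), with miR-219a-5p (0.215 to 0.684 CPM) and miR-338-3p far below it. For the mesenchymal list it was miR-143-3p (53.7 to 92.4 CPM), with each of the others at 1.79 CPM or less. Only markers that passed a filter on low counts were tested. They were all 7 neuronal, 2 of 7 stem cell, 2 of 3 glial, 3 of 4 mesenchymal and 3 of 3 muscle miRNAs. The liver marker was tested too, but 0 of the 3 blood cell miRNAs. In none of these lists did a tested miRNA pass both a 2-fold change and an unadjusted P of 0.05, against 2.32% of all tested miRNAs. At an unadjusted P of 0.05 alone 1 did, against 4.52% of all tested miRNAs. It was the neuronal miR-124-3p, named after its values were seen. Its average was 4383 CPM with and 2568 CPM without ethanol (log2 fold change 0.77, unadjusted P of 0.0316 and adjusted p of 0.922 in edgeR). With CPM scaled to library size only, exposed replicates 1 and 2 stood far apart, at 6134 and 3292 CPM. The unexposed ones were at 2494 and 2329 CPM. Whether this miRNA or other cells bear on the counts of the family was not tested.

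The guide strands of miR-148a and miR-148b were among the abundant miRNAs of these interneurons, and that of miR-152 was several-fold below them. In bulk RNA, fewer cells of a type and less of a miRNA per cell cannot be told apart. The 6 members together made up 0.945% (95% Wilson interval 0.941 to 0.949%) and 0.770% (0.767 to 0.774%) of all counts of exposed replicates 1 and 2. In the unexposed replicates 1 and 2 they made up 0.682% (0.678 to 0.687%) and 0.913% (0.908 to 0.919%). The shares of the groups overlapped, and the cultures of a group lay much further apart than their counting intervals. Those intervals cover counting error only, and the reads carry no molecular identifiers.

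**Figure D1:**
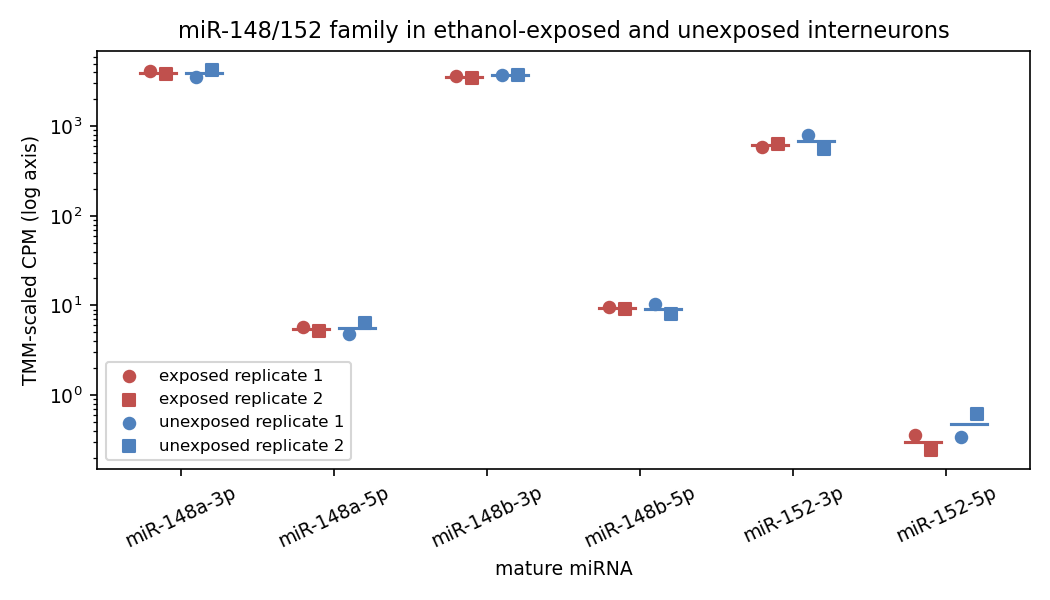
TMM-scaled CPM on a log axis of the 6 mature miRNAs in each library, with circles for replicate 1, squares for replicate 2 and a line at the group mean. The 3p strands of miR-148a and miR-148b lie between 3428 and 4271 CPM in every library, and miR-152-5p lies under 1 CPM (0.246 to 0.622).

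The CPM were computed from the deposited counts with TMM, a scaling that assumes that most miRNAs do not change. hsa-miR-148a-3p, the guide of the intergenic precursor, stood at 4112 and 3787 CPM with ethanol and at 3575 and 4271 CPM without. The unexposed libraries enclosed both exposed libraries, so there was no separation. Its mean was 3949 ± 230 CPM with and 3923 ± 492 CPM without ethanol (SD, n = 2 each). It ranked between 31 and 36 by count among all miRNAs in every library.

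hsa-miR-148b-3p, the guide from the COPZ1 intron, stood at 3609 and 3428 CPM with ethanol and at 3686 and 3737 CPM without, or 3519 ± 128 and 3712 ± 36.3 CPM (SD, n = 2 each). Both exposed values were below both unexposed values, by a margin smaller than the distance between the exposed libraries. With CPM scaled to library size only, the order was lost, with 4096 and 3357 CPM in exposed against 3119 and 3974 CPM in unexposed cells. It was the member whose TMM-scaled level varied least between cultures, with replicates apart by 0.074 (exposed) and 0.020 (unexposed) on the log2 scale. The median over tested miRNAs with a mean of at least 100 CPM was 0.19 and 0.34. With CPM scaled to library size only, miR-148b-3p was not the steadiest member. The values of miR-152-3p then lay relatively closer together, at 666 and 622 CPM in exposed and 668 and 599 CPM in unexposed cells.

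hsa-miR-152-3p, the guide from the COPZ2 intron, stood at 587 and 635 CPM with ethanol and at 790 and 563 CPM without, or 611 ± 34.1 and 676 ± 160 CPM (SD, n = 2 each). Unexposed replicate 1 was the highest and unexposed replicate 2 the lowest of the 4, so the groups overlapped. After TMM scaling the distance between the unexposed cultures was 0.49 on the log2 scale, the largest among the guides. With CPM scaled to library size only it was no longer the largest. The unexposed cultures then stood at 668 and 599 CPM, against 3025 and 4542 CPM for miR-148a-3p.

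The passenger strands were counted far less often than the guides. hsa-miR-148a-5p had 144 and 125 counts with ethanol and 56 and 83 without, which is 5.71 and 5.13 against 4.75 and 6.45 CPM. hsa-miR-148b-5p had 245 and 221 counts against 121 and 104, or 9.71 and 9.08 against 10.3 and 8.08 CPM. For both the unexposed libraries enclosed the exposed ones after TMM scaling. With CPM scaled to library size only, miR-148b-5p was higher in both exposed libraries, at 11.0 and 8.89 against 8.68 and 8.59 CPM. Such a separation, in either direction, was seen for 30.8% of all tested miRNAs. hsa-miR-152-5p had 9 and 6 counts with ethanol and 4 and 8 without, where 3 counts, between 0.121 and 0.248 CPM, were taken as the least that can be told from 0. It was too rare for the filter on low counts and was not among the miRNAs tested in edgeR. With a filter of at least 1 count in any library it entered the test, where its log2 fold change was -0.65 (edgeR, unadjusted P = 0.303). At these counts its levels of 0.357 and 0.246 CPM in exposed and 0.339 and 0.622 CPM in unexposed cells could not be told apart, and they overlapped.

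By level the order was miR-148a-3p, miR-148b-3p, miR-152-3p, miR-148b-5p, miR-148a-5p and miR-152-5p on the mean CPM of either group. Counts of different miRNAs also carry the unequal yield of ligation and amplification, so the order is one of counts. miR-148a-3p and miR-148b-3p did not differ in order beyond the spread between cultures, since miR-148a-3p had 1.14, 1.10 and 1.14 times the counts of miR-148b-3p in exposed replicates 1 and 2 and unexposed replicate 2, but 0.970 times in unexposed replicate 1. miR-148b-3p had between 4.67 and 6.64 times the counts of miR-152-3p in all 4 libraries. miR-148b-5p was above miR-148a-5p in all 4 libraries, although in unexposed replicate 2 their 95% Wilson intervals overlapped (0.000709 to 0.00104% and 0.000553 to 0.000850% of all counts).

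Ethanol exposure was then compared with no exposure in edgeR's quasi-likelihood test over the 863 miRNAs that passed the filter, of which 5 were members. The question was whether the level of any member differed after a 7-day exposure. None of the 5 tested members was past an unadjusted P of 0.05 (0 of 5, and 0 also in limma-voom and DESeq2), against 39 of the 863 tested miRNAs, or 4.52%. None was past both thresholds used for these cells in the study, a 2-fold change with an unadjusted P of 0.05, against 2.32% of all tested miRNAs. The median log2 fold change of the 5 was -0.048, and that of all tested miRNAs -0.010, with 2 of the 5 above and 3 below 0.

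For miR-148a-3p the log2 fold change (exposed over unexposed) was 0.0096 with a standard error of 0.22 and a 95% interval from -0.51 to 0.53, that is between 0.702-fold and 1.44-fold. Among the 163 tested miRNAs with a mean of at least 100 CPM, 5 had a smaller absolute change in this setting, and the median absolute log2 change there was 0.19. The rank is that of an estimate far smaller than its standard error. With library size only the change was 0.15, and with upper quartile scaling it was -0.10. For miR-148b-3p it was -0.077 (standard error 0.21, interval -0.57 to 0.42), or between 0.674-fold and 1.33-fold. For miR-152-3p it was -0.15 (standard error 0.24, interval -0.70 to 0.41), or between 0.616-fold and 1.32-fold. The intervals of the 3 guides thus left out a 2-fold change in either direction, but not changes within the bounds given.

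The passenger strands gave log2 fold changes of -0.048 (standard error 0.31, interval -0.76 to 0.67) for miR-148a-5p and 0.036 (standard error 0.29, interval -0.63 to 0.70) for miR-148b-5p. On both strands of the miR-148a and miR-148b precursors the estimate was within 0.08 of 0 on the log2 scale and changed sign with the scaling of the libraries, as given with the other settings in the closing section.

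The unadjusted P from edgeR's quasi-likelihood test was 0.967 for miR-148a-3p, 0.727 for miR-148b-3p, 0.557 for miR-152-3p, 0.881 for miR-148a-5p and 0.903 for miR-148b-5p. Adjusted over all 863 miRNAs by Benjamini-Hochberg, edgeR's p of the 5 lay between 0.970 and 0.988. A two-sided exact permutation test over the 4 libraries cannot go below 0.333 with 2 against 2. It gave 0.333 for miR-148b-3p and miR-152-5p and 1 for the other members. The TMM-scaled levels did not overlap between groups for 1 of the 5 tested members, miR-148b-3p, and for 33.4% of all tested miRNAs, so that this is near the background. With CPM scaled to library size only it was again 1 of the 5, then miR-148b-5p, against 30.8% of all tested miRNAs.

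**Figure D2:**
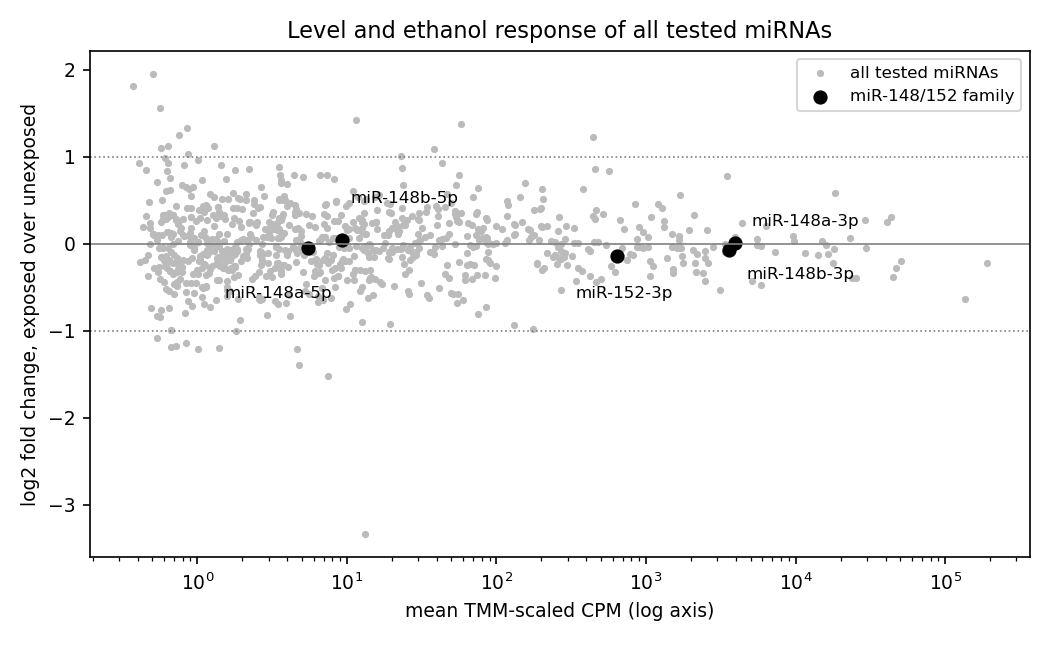
Log2 fold change of exposed over unexposed cells against the mean TMM-scaled CPM (log axis) for all 863 tested miRNAs, in grey, with the 5 tested family members in black and dotted lines at a 2-fold change. The family members lie between -0.15 and 0.036, inside the spread of miRNAs of similar level.

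The balance of strands and of guides was examined next, as ratios of counts within a library that do not depend on scaling. miR-148a-5p made up 0.139% and 0.135% of the counts of its precursor with ethanol and 0.133% and 0.151% without. For miR-148b-5p the shares were 0.268% and 0.264% against 0.278% and 0.216%. For miR-152-5p they were 0.0608% and 0.0388% against 0.0429% and 0.110%, and in unexposed replicate 2 its 95% Wilson interval ran from 0.0559 to 0.217%. The 3p strand thus outnumbered the 5p strand in every library for all 3 precursors, by between 662 and 753 times for miR-148a and between 359 and 462 times for miR-148b. The ratio of the miR-152 strands, between 906 and 2577, rests on 4 to 9 counts of the 5p strand.

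Among the counts of the 3 guides, miR-148a-3p took 49.5% and 48.2% with ethanol and 44.4% and 49.8% without. miR-148b-3p took 43.4% and 43.7% against 45.8% and 43.6%. miR-152-3p took 7.07% and 8.09% against 9.81% and 6.57%. The 2 exposed libraries and unexposed replicate 2 had a like make-up, and unexposed replicate 1 had the lowest share of miR-148a-3p and the highest of miR-152-3p.

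Of the 6 ratios tested with 0.5 added to each count, 3 between strands and 3 between guides, all overlapped between the groups. The mean log2 ratio differed between exposed and unexposed cells by 0.051 for the strands of miR-148a, -0.12 for those of miR-148b and 0.54 for those of miR-152. For miR-148a-3p over miR-148b-3p it differed by 0.092, for miR-148a-3p over miR-152-3p by 0.14 and for miR-148b-3p over miR-152-3p by 0.050. The two-sided exact permutation p was 0.667 for the miR-152 strands and 1 for the others, and 1 for all 6 after Benjamini-Hochberg adjustment. In each case the difference was smaller than the SD of the unexposed cultures, which was 0.13, 0.26 and 0.91 for the strands of miR-148a, miR-148b and miR-152 and 0.17, 0.53 and 0.36 for the guides in the order given.

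**Figure D3:**
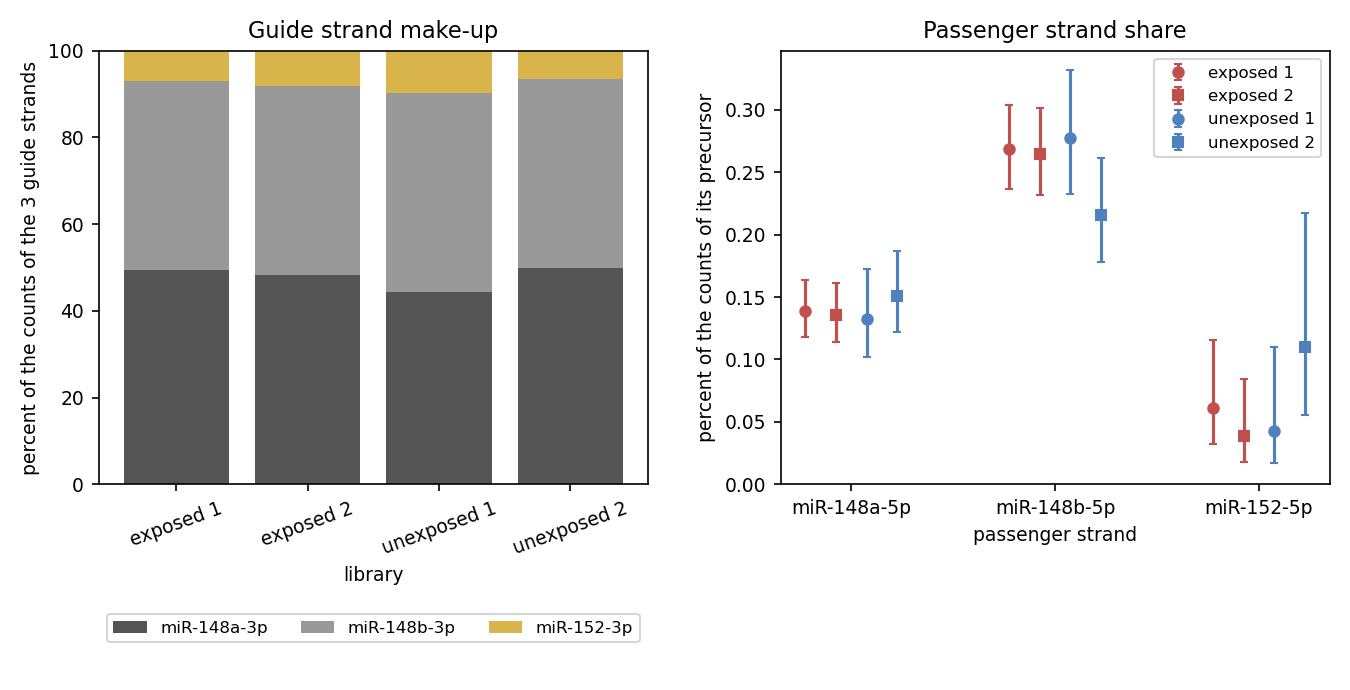
Left, the share of each of the 3 guide strands in their summed counts for each library, in percent. Right, each passenger strand in percent of the counts of its precursor, with 95% Wilson intervals that cover counting error only. Guide shares of unexposed replicate 1 stand apart (44.4% miR-148a-3p and 9.81% miR-152-3p), and passenger shares stay under 0.3% (at most 0.278%).

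Other miRNAs linked to DNA methylation and chromatin were read from a fixed list of 9: the miR-29 guides, which target DNMT3A and DNMT3B, miR-185-5p, miR-342-3p and miR-126-3p, which target DNMT1, miR-143-3p, which targets DNMT3A, miR-101-3p, which targets the histone methyltransferase EZH2, and miR-132-3p, a neuronal miRNA induced by activity. All 9 were tested and 0 were past an unadjusted P of 0.05 in edgeR, against 4.52% of all tested miRNAs, with log2 fold changes between -0.37 (miR-185-5p) and 0.19 (miR-132-3p) and a median of -0.13. miR-101-3p was at 1335 and 1373 CPM with ethanol and at 1655 and 1667 CPM without, a log2 change of -0.29 ± 0.20 (standard error) with an unadjusted P of 0.187 in edgeR. miR-132-3p was at 1416 and 1403 CPM against 1219 and 1243 CPM, a log2 change of 0.19 ± 0.20 (standard error) with an unadjusted P of 0.367 in edgeR. TMM-scaled levels did not overlap between groups for 4 of the 9, against the 33.4% of all tested miRNAs. These were miR-101-3p, miR-132-3p, miR-126-3p and miR-29c-3p. For miR-126-3p they were 1012 and 919 CPM with and 888 and 800 CPM without ethanol. Its log2 change was 0.19 ± 0.21 (standard error) with an unadjusted P of 0.382 in edgeR. With CPM scaled to library size only this separation held for 2 of the 9, miR-126-3p and miR-132-3p, against 30.8% of all tested miRNAs. miR-101-3p and miR-29c-3p then overlapped. The summed level of the 6 family members, 7865 to 8587 CPM, was above that of the 9 miRNAs of this list, 5498 to 6403 CPM, in all 4 libraries.

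The guides miR-130a-3p, miR-130b-3p, miR-301a-3p, miR-301b-3p and miR-454-3p were compared as relatives by seed, since bases 2 to 7 of the 4 with a RefSeq sequence, AGUGCA, are bases 3 to 8 of the miR-148 and miR-152 guides, as shown here for miR-130b-3p with its seed in capitals.
hsa-miR-130b-3p: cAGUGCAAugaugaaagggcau
All 5 were tested and 0 were past an unadjusted P of 0.05 in edgeR, against the same 4.52%, with log2 fold changes from -0.59 (miR-301b-3p) to 0.30 (miR-130b-3p). They summed to between 1054 and 1185 CPM, below miR-148a-3p alone in every library.

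**Figure D4:**
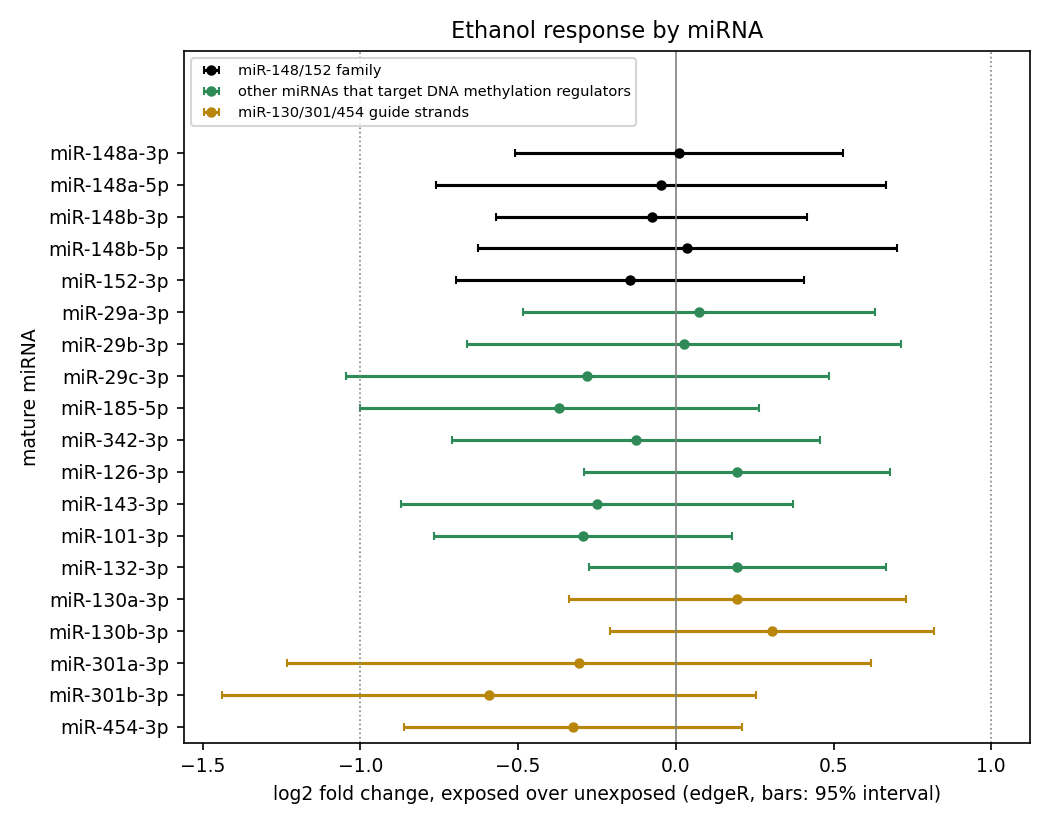
Log2 fold change of exposed over unexposed cells with its 95% interval from edgeR for the 5 tested family members (black), 9 other miRNAs of the list linked to DNA methylation and chromatin (green) and the 5 guides of the miR-130, miR-301 and miR-454 family (ochre), with dotted lines at a 2-fold change. All 19 intervals include 0.

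The miRNAs most like each guide were sought by the root mean square difference of centred log2 CPM over the 4 libraries, among 376 miRNAs with a mean of at least 10 CPM. For miR-152-3p the nearest was miR-505-3p (0.011 on the log2 scale), at 223 and 246 CPM with ethanol and 300 and 214 CPM without, followed by miR-30d-5p (0.033) and miR-342-3p (0.040) of the methylation list. All of these were highest in unexposed replicate 1, as miR-152-3p was. For miR-148a-3p the nearest were miR-584-5p (0.045), miR-106b-3p (0.045) and miR-181b-2-3p (0.047), which like it were highest in unexposed replicate 2. For miR-148b-3p they were miR-576-5p (0.030), miR-125b-2-3p (0.033) and miR-24-3p (0.034). With 4 libraries these distances describe a shared course between cultures and carry no test.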

How the data were processed

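Per the labels, small RNA libraries (NEBNext) were made from 2 ethanol-exposed and 2 unexposed cultures. The authors ran CAP-miRseq on the reads and deposited unnormalized read counts for each mature miRNA. The submitters' processing notes name the build hg19, and the miRNA annotation release is not given in the sources used here. Replicates are separate libraries, from cell treatments run in duplicate.

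Everything after the counts was computed here: edgeR 4.0.16 (R 4.3.3) with filterByExpr (minimum count 10, minimum total 15), TMM, the quasi-likelihood test without covariates and Benjamini-Hochberg adjustment over 863 miRNAs. Intervals were taken from the F statistic. Ratios had 0.5 added to each count, or 10 as an alternative. DESeq2 1.42.0, limma-voom (limma 3.58.1), other scalings and filters, a replicate block and leaving out each library were tried. The fit was tested on simulated data. Members and lists were chosen with earlier results of these data known. Named miRNAs were the members, the 9 methylation-related miRNAs, the guides of the miR-130, miR-301 and miR-454 family and the 3 nearest to each guide, with markers given by list and some of them by name. Sequences come from RefSeq (GRCh38.p14) and GENCODE 29, matched by name, since the counts carry no coordinates. The counts of exposed replicates, and of unexposed replicates, did not agree within counting noise (chi-square per degree of freedom 795 and 712), so each library was counted as 1 sample.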

Additional observations from a re-analysis of the deposited data

How the results depend on the processing

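Across 9 other settings for the test, scaling, filter and block, and with each library left out, 0 of 65 values for the 5 tested members had an unadjusted P under 0.05 (lowest 0.145, miR-152-3p without unexposed replicate 2), while the sign changed in 16. Library size only moved the median of all tested miRNAs to 0.14 and upper quartile scaling to -0.12, from -0.010. With library size only the log2 fold change was 0.084 for miR-148a-5p, 0.071 for miR-148b-3p and 0.024 for miR-152-3p. With upper quartile scaling it was -0.10 for miR-148a-3p and -0.071 for miR-148b-5p, with DESeq2 and with its size factors in edgeR -0.026 and -0.026 for miR-148a-3p and -0.0011 and -0.0013 for miR-148b-5p. With 1 library left out, which assumes that the lone sample varies like the other group, the ranges were -0.12 to 0.11 for miR-148a-3p, -0.26 to 0.15 for miR-148a-5p, -0.12 to -0.034 for miR-148b-3p, -0.16 to 0.21 for miR-148b-5p, -0.40 to 0.11 for miR-152-3p and -1.06 to -0.27 for miR-152-5p (-0.66 with all libraries, a difference of mean log2 CPM without a fit). Tested in edgeR only with at least 1 count in any library as the filter, miR-152-5p had -0.65 with an unadjusted P of 0.303. The ranges of the log2 ratios were -0.040 to 0.14, -0.30 to 0.063 and -0.10 to 1.18 for the strands of miR-148a, miR-148b and miR-152, and -0.027 to 0.21, -0.23 to 0.51 and -0.20 to 0.30 for miR-148a-3p over miR-148b-3p, miR-148a-3p over miR-152-3p and miR-148b-3p over miR-152-3p. For miR-152-3p the value was 0.11 without unexposed replicate 1 and -0.40 without unexposed replicate 2. With 10 instead of 0.5 added to each count, the log2 ratio of the strands differed by 0.14 for miR-148a, -0.060 for miR-148b and 0.74 for miR-152. The exact permutation p was then 0.333, the lowest possible, for the strands of miR-148a and miR-152. The ratios between guides stayed at 0.092, 0.14 and 0.050.

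The number of miRNAs past both thresholds (2-fold, unadjusted P of 0.05) was 20 in edgeR, 10 with DESeq2, 49 with at least 1 count in any library, 12 with CPM above 1 in at least 2 libraries, 11 with at least 10 counts in every library, and 10 to 44 with 1 library left out. With the replicate block it was 16, and the log2 fold changes of miR-148a-3p and miR-152-3p were 0.014 and -0.13, with no member past the threshold. Deviations of same-numbered libraries correlated at -0.186 over miRNAs, which are not replicates, and a crossed replicate block, added after seeing the data, gave 21. The cause of these shifts was not tested. Depth limits miR-152-5p, at 4 to 9 counts.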
